A study of Mus musculus with 10 samples.

Results

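The 8 genes described here, Nes, Sox1, Pax6, Lhx2, Neurog3, Neurod1, Sox11 and Hes3, belong to the first steps of neural development. They were chosen by name as genes of neuroectoderm and neurogenesis, with earlier results of these data known, so their counts are no independent evidence. They were read from every noncontrol probe that the array design names for them, 13 of 55681 probes. All 8 were among the 28193 genes that could be tested. Expression was measured in mouse embryonic stem (ES) cells with 3 copies of chromosome 6 (Ts6, passages 9 and 18), chromosome 8 (Ts8, passages 10 and 13), chromosome 11 (Ts11, passages 8 and 11) or chromosome 15 (Ts15, passages 11 and 14), and in the diploid male AB1 line (WT, passages 18 and 20). The trisomic cells are labelled as strain 129 S7/SvEvBrd, and neither their sex nor their parent line is given. Each group was a single cell line measured on 2 arrays, described as biological replicates, so the extra chromosome cannot be told apart from anything else that separates a line from WT. All cells grew under the same conditions on irradiated SNL76/7 feeder fibroblasts, which were thinned out by letting them settle before RNA was taken.

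Mouse ES cells turn to neuroectoderm when the signals that hold them in the pluripotent state are lost. Sox1 is the earliest transcription factor specific to the neural plate, Pax6 and Lhx2 pattern the neural plate and eye field, and Nes encodes nestin, the intermediate filament of neural progenitors. Neurog3 and Neurod1 are basic helix-loop-helix (bHLH) factors that bind E-box motifs and drive progenitors out of the cell cycle, Neurog3 best known from endocrine cells of pancreas and gut. Sox11 acts in newly formed neurons, and Hes3 is a bHLH repressor of the Hes family that holds progenitors back from differentiation.

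The probes of the 8 genes are shown by their last 30 bases, because different probes of a gene gave different answers in some lines. Positions are those of the array files on mm9, and capitals mark the motif AATAAA, the polyadenylation signal.
Nes (A_55_P1953728, chr3:87784333-87784362, plus strand): ctctcttcctcccttgAATAAAgctgtatc
Sox1 (A_55_P2012051, chr8:12397533-12397562, plus strand): ctagcgccgcggggacgccggggacactgc
Sox1 (A_55_P2012056, chr8:12399526-12399555, plus strand): aggtAATAAAagaacacccctccctttttc
Pax6 (A_55_P2022946, chr2:105536484-105536513, plus strand): tgtctcagtactggcctcgattacagtaaa
Lhx2 (A_51_P257419, chr2:38224963-38224992, plus strand): tgccttaggaatactgttttatcttcatac
Neurog3 (A_55_P2182187, chr10:61597482-61597511, plus strand): gacggttcctgaagcactgtttgtctccct
Neurod1 (A_55_P2004972, chr2:79294309-79294338, minus strand): aacacgaaccatccgccgagtttgaaaaaa
Neurod1 (A_52_P408391, chr2:79293621-79293650, minus strand): gactttttataacgtggatttcctatttta
Sox11 (A_55_P2094721, chr12:28020087-28020116, minus strand): ttcaaaagaccAATAAAaatcgtgtgatca
Sox11 (A_52_P160955, chr12:28019541-28019570, minus strand): gatgtttttatgaaagcctgtaagtggtcc
Hes3 (A_55_P1963580, chr4:151660083-151660112, minus strand): tatacaattatgAATAAAgactgggcgtga
Within the last 30 bases the motif was in 4 of the 13 probes, 1 each of Nes, Sox11, Hes3 and Sox1. Of all probes, 8.16% hold it within their last 30 bases on this strand (1.96% hold its reverse complement there). Both remaining probes, a further 1 each for Neurog3 and Pax6, were well above background on no array. The Pax6 probe spans 852 bases of genome with 60 bases of sequence, so it bridges an intron. No annotation of this build was used, so the probes are not assigned to exons or UTRs.

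Levels are given as log2 of the processed signal relative to the 75th percentile of the same array, so that 0 is the 75th percentile. They can be compared between arrays for a given probe, not between probes. A difference was called when its p-value from limma, fitted over all 10 arrays and adjusted by Benjamini-Hochberg over all genes, was under 0.05. The 4 comparisons with WT share the same 2 WT arrays.

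A gene was tested where both arrays of at least 1 group were well above background. Hes3 met that through WT alone, so its selection favoured lower values in the lines, and it is left out of the counts of this paragraph unless named. Of the 7 other genes, which were well above background on every array, 5 fell against WT in Ts6 (Nes, Lhx2, Neurog3, Neurod1 and Sox11), beside 4.6% of all genes called lower. In Ts8 1 fell (Neurog3; 1.43% of all genes were called lower), in Ts11 2 fell (Neurog3 and Sox11; 4.1%), and in Ts15 limma called 0 (3 lower at an unadjusted p under 0.05; 4.86% of all genes were called lower). In the mean of the 4 lines 1 fell, Neurog3 (1.95%). None of the 8 was called higher than WT in any line by limma; at an unadjusted p under 0.05, 2 genes, Neurod1 and Sox11, were higher in Ts8 and 0 in Ts6, Ts11 and Ts15. The median difference of the 7 genes was -0.81 in Ts6 (-0.01 over all genes), 0.29 in Ts8 (0.04), -0.4 in Ts11 (0.0) and -0.31 in Ts15 (-0.01). Sox11 and Neurog3 were called in both Ts6 and Ts11. Nes and Neurod1 were called in Ts6 alone, and their differences between Ts6 and each other line were themselves called; for Lhx2, also called in Ts6 alone, no difference between lines was. With passage number as a covariate 2 of the 8 genes were called in Ts6 and 0 in the other lines, and without single arrays the count in Ts6, Hes3 included (6 with all arrays), was 2 to 5 (2 without Ts6 replicate 1 and 3 without WT replicate 2). In bulk RNA, fewer cells that express a gene and less of its RNA per cell cannot be told apart.

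**Figure D1:**
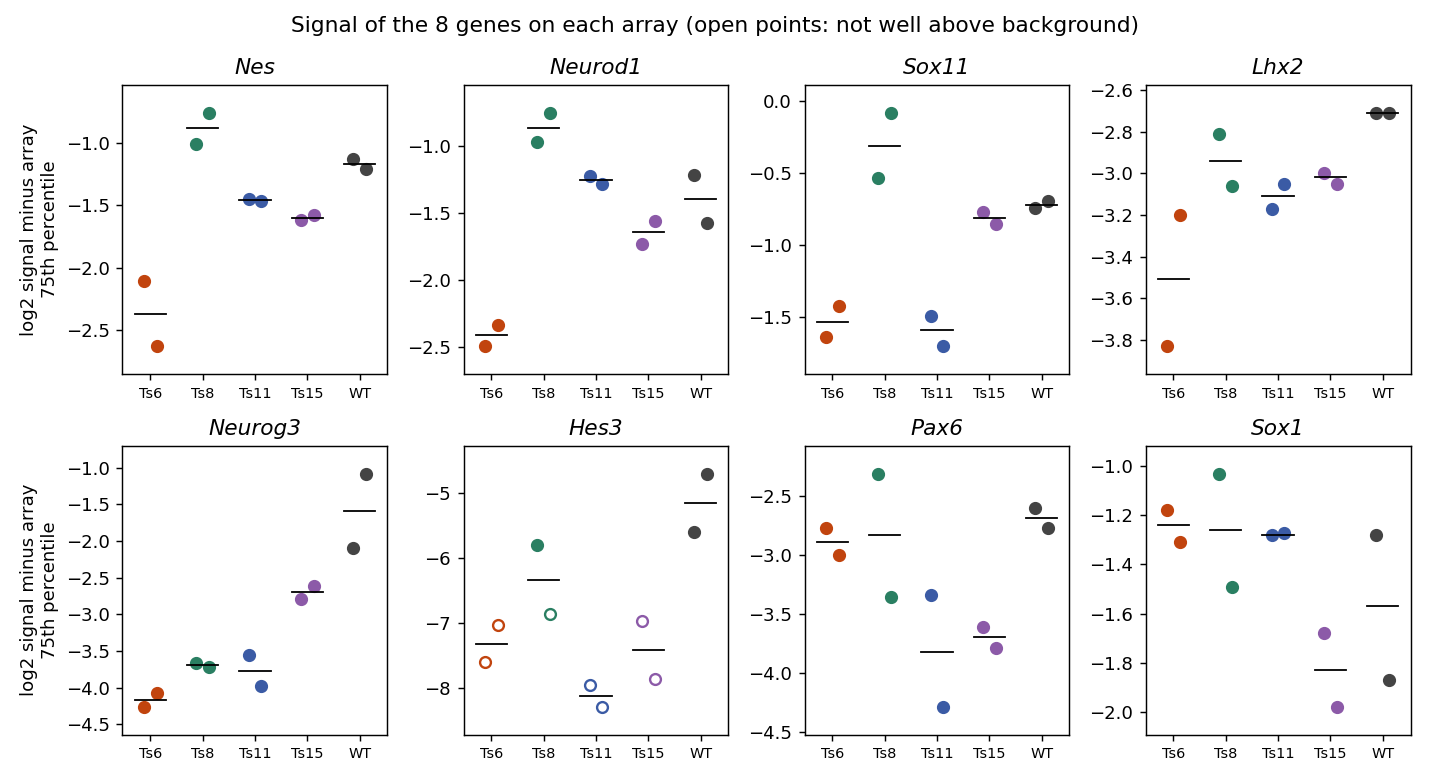
Log2 level of each gene (y axis, relative to the 75th percentile of the array) on every array, with Ts6, Ts8, Ts11, Ts15 and WT from left to right and the group mean as a line. Neurog3 lies lower on every array of the 4 lines than on both WT arrays, Nes and Neurod1 are lowest in Ts6, and open points mark arrays on which the probe was not well above background (7 of the 10 for Hes3).

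**Figure D2:**
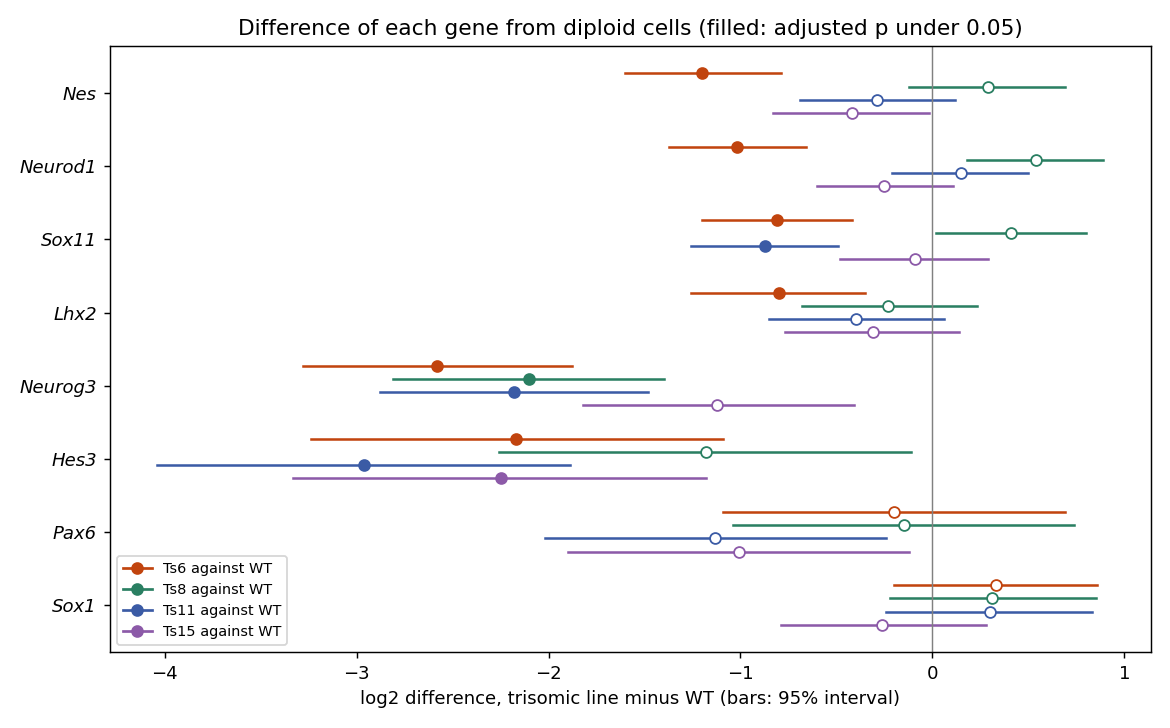
Log2 difference from WT (x axis) for each gene and line, with the 95% interval as a bar and filled points where the adjusted p was under 0.05. The intervals of Nes and Neurod1 in Ts6 do not reach those in Ts8, the values of Hes3 were read from dim spots and are no bound on its fold, and no point to the right of 0 is filled.

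Nestin, the progenitor filament, separated Ts6 from all other cells. Nes was at -2.11 and -2.63 in Ts6 cells, -1.01 and -0.76 in Ts8 cells, -1.45 and -1.47 in Ts11 cells, -1.62 and -1.58 in Ts15 cells, and -1.13 and -1.21 in WT cells. Both Ts6 arrays were below every other array, both Ts8 arrays were above every other array, and no group overlapped its neighbour in the order Ts8, WT, Ts11, Ts15, Ts6. In Ts6 Nes fell by 1.2 ± 0.17 (SE) on the log2 scale against WT, which left 43.5% of the WT signal (adjusted p = 0.0065), and the call held in all 12 alternative analyses and without any single array. The differences from WT of 0.29 in Ts8, -0.29 in Ts11 and -0.42 in Ts15 were not called (adjusted p = 0.34, 0.35 and 0.19). Between lines, Nes was lower in Ts6 than in Ts8 (-1.49, adjusted p = 0.0021), Ts11 (-0.91, 0.025) and Ts15 (-0.77, 0.022), and higher in Ts8 than in Ts15 (0.71, 0.031). Without Ts6 replicate 2, Ts6 and Ts15 differed by -0.51 and the call was lost (adjusted p = 0.081), as was that against Ts11 (-0.65, adjusted p = 0.08).

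Neurod1, which acts late in the bHLH cascade of neurons and endocrine cells, had nearly the same order of lines. It was at -2.49 and -2.33 in Ts6 cells, -0.97 and -0.75 in Ts8 cells, -1.22 and -1.28 in Ts11 cells, -1.73 and -1.56 in Ts15 cells, and -1.21 and -1.57 in WT cells. Ts6 lay below and Ts8 above all others, while Ts11 and Ts15 overlapped WT. In Ts6 Neurod1 fell by 1.02 ± 0.15 (SE), to 49.4% of WT (adjusted p = 0.0074; without Ts6 replicate 1, -0.93 with adjusted p = 0.066). Its other probe, 688 bases further along the transcript, was at -3.72 and -3.19 in Ts6 cells, -1.15 and -0.84 in Ts8 cells, -1.85 and -1.44 in Ts11 cells, -2.3 and -1.92 in Ts15 cells, and -1.66 and -1.94 in WT cells. That probe fell by 1.66 in Ts6 (adjusted p over all probes = 0.0077), so both probes placed Ts6 lowest and Ts8 highest. In Ts8 neither probe passed, at 0.54 (adjusted p = 0.089) and 0.81 (0.11). Between lines, Ts6 was lower than Ts8 (-1.56, adjusted p = 0.00096), Ts11 (-1.16, 0.0081) and Ts15 (-0.77, 0.014), and Ts8 was higher than Ts15 (0.79, 0.015). Over the 10 arrays Nes and Neurod1 correlated at 0.91 (Pearson), the highest of the 21 pairs among the 7 genes measured on all arrays; the points share arrays and cultures, and the value describes them only.

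Sox11, a SoxC factor of postmitotic neurons, was low in Ts6 and in Ts11. It was at -1.64 and -1.42 in Ts6 cells, -0.53 and -0.08 in Ts8 cells, -1.49 and -1.7 in Ts11 cells, -0.77 and -0.85 in Ts15 cells, and -0.74 and -0.69 in WT cells. The 4 arrays of Ts6 and Ts11 overlapped each other and lay below the other 6. Sox11 fell by 0.81 ± 0.17 (SE) in Ts6 (adjusted p = 0.025) and fell by 0.87 ± 0.17 in Ts11 (0.023). The probe 546 bases downstream fell by 1.27 in Ts6 and fell by 1.18 in Ts11 (adjusted p over all probes = 0.0067 and 0.012). Ts6 and Ts11 differed by 0.06 (95% interval -0.33 to 0.45), and both were lower than Ts8 (-1.22, adjusted p = 0.0044, for Ts6; Ts8 was higher than Ts11 by 1.29, 0.0048) and than Ts15 (-0.72, 0.024, and -0.78, 0.022). Each call against WT was lost without any 1 of the 4 arrays compared, with adjusted p of 0.057 to 0.17 in Ts6 and 0.055 to 0.1 in Ts11, while the differences stayed between -0.98 and -0.7.

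**Figure D3:**
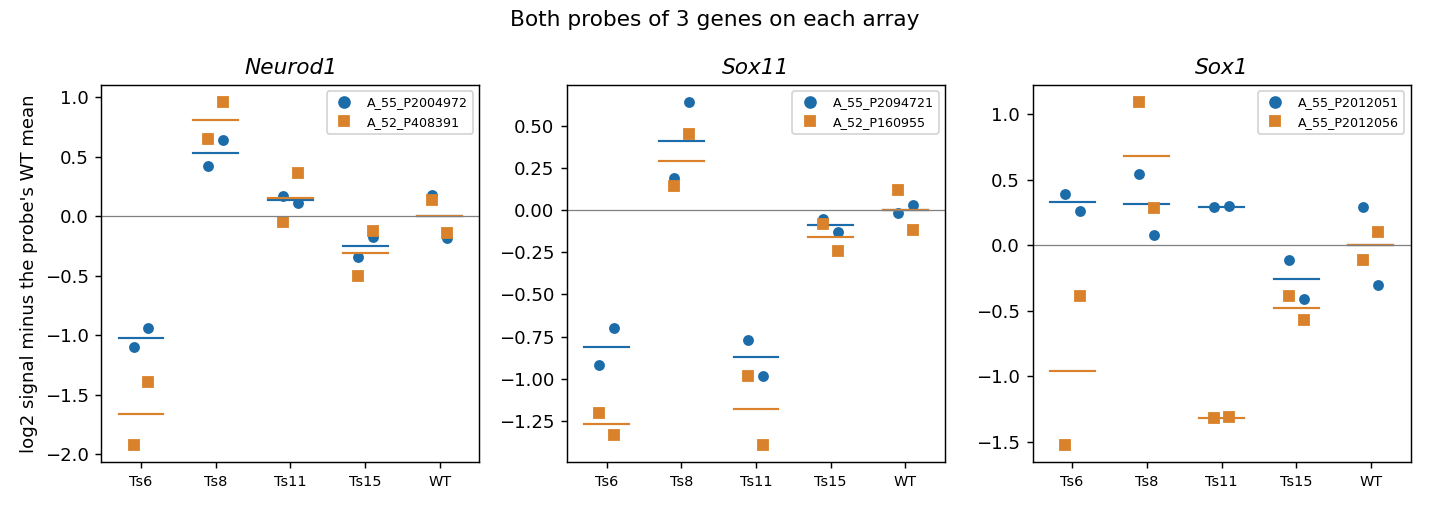
Log2 level of both bright probes of Neurod1, Sox11 and Sox1 on each array (y axis, relative to the WT mean of the probe), with Ts6, Ts8, Ts11, Ts15 and WT from left to right and means as lines. The probes of Neurod1 and of Sox11 order the groups nearly alike, while those of Sox1 lie on opposite sides of WT in Ts6 and Ts11.

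Neurog3 differed most from WT among the genes measured on every array. It was at -4.26 and -4.07 in Ts6 cells, -3.66 and -3.72 in Ts8 cells, -3.55 and -3.98 in Ts11 cells, -2.79 and -2.61 in Ts15 cells, and -2.09 and -1.08 in WT cells. All 8 trisomic arrays were below both WT arrays, which themselves lay apart with an SD of 0.72, the widest spread of any group for this gene. Neurog3 fell by 2.58 ± 0.3 (SE) in Ts6, to 16.7% of WT (adjusted p = 0.0028), and the differences were -2.1 ± 0.3 in Ts8 (0.023), -2.18 ± 0.3 in Ts11 (0.0081) and -1.99 ± 0.24 in the mean of the 4 lines (0.012). In Ts15 the difference was -1.12 (adjusted p = 0.069), or -1.62 with adjusted p = 0.014 without WT replicate 1 and -0.61 with adjusted p = 0.18 without WT replicate 2, and Ts6 was lower than Ts15 (-1.46, 0.016). Without WT replicate 2 the mean of the lines was -1.49 with adjusted p = 0.053, and without Ts8 replicate 2 the Ts8 difference was -2.07 with adjusted p = 0.12. The Ts6 call held in all 12 alternative analyses and without any single array (-3.09 to -2.07).

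Because Neurog3 is also the factor that starts endocrine differentiation in the pancreas, 16 genes of that programme were read beside it, 14 of which could be tested. In Ts6 5 fell, among them Pdx1, a pancreatic homeobox factor (-2.13, adjusted p = 0.0016), Insm1, a zinc-finger factor of neuroendocrine cells (-1.42, 0.00057), and Isl1 and Sst, which were not well above background in Ts6 and get no fold (Isl1 was tested only through WT). In Ts11 Pdx1 fell by 1.83 (adjusted p = 0.0048) and Insm1 fell by 1.39 (0.001), and in Ts15 Insm1 fell by 0.55 (0.02). In Ts8 limma called 0 of the 14, with 3 higher and 1 lower at an unadjusted p under 0.05. Insm1 was at -1.49 and -1.47 in Ts6, -1.41 and -1.5 in Ts11, -0.56 and -0.67 in Ts15, and -0.12 and -0.01 in WT, so it shared the low level in Ts6 and Ts11 seen for Sox11. The median over the 14 genes was -0.43 in Ts6 and 0.06 in Ts11. Of the 14, 35.7% were called in Ts6, 14.3% in Ts11 and 7.14% in Ts15, beside 9.04%, 8.13% and 7.43% of all genes. In Ts8 3.49% of all genes were called.

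Hes3, the repressor that keeps progenitors undifferentiated, was at the edge of detection. It was at -7.6 and -7.04 in Ts6 cells, -5.81 and -6.87 in Ts8 cells, -7.95 and -8.29 in Ts11 cells, -6.97 and -7.86 in Ts15 cells, and -5.6 and -4.71 in WT cells. The probe was well above background on both WT arrays and on Ts8 replicate 1, and on none of the arrays of Ts6, Ts11 and Ts15. Since it was tested only through its WT level, its p-values are no independent sign of a fall. Hes3 was at least 1.68-fold lower in Ts6 (adjusted p = 0.028), at least 2.11-fold lower in Ts11 (0.012) and at least 2.13-fold lower in Ts15 (0.03). With no filter on dim probes the adjusted p was 0.05, not under the threshold, in Ts6, 0.026 in Ts11 and 0.056 in Ts15. Each bound sets the mean WT level against the dim group's mean of, per array, the higher of its own level and the lowest level of any probe well above background. With normexp background correction the fitted differences were -0.81 in Ts6, -1.05 in Ts11 and -0.81 in Ts15, so the bounds for Ts11 and Ts15 did not hold there. In Ts8 the difference was -1.18 (adjusted p = 0.17). Without WT replicate 2 the calls were lost in Ts6, Ts11 and Ts15 (adjusted p = 0.13, 0.061 and 0.14).

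Lhx2, a LIM homeobox factor of eye field and forebrain, was at -3.83 and -3.2 in Ts6 cells, -2.81 and -3.06 in Ts8 cells, -3.17 and -3.05 in Ts11 cells, -3.0 and -3.05 in Ts15 cells, and -2.71 and -2.71 in WT cells. Every trisomic array was below both WT arrays, but by little in all lines except Ts6. In Ts6 it fell by 0.8 ± 0.2 (SE; adjusted p = 0.045), a call that was lost in 9 of the 10 analyses that left out an array and in 5 of 12 others. Without Ts6 replicate 1, the lower array, the difference was -0.49 (adjusted p = 0.19).

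Pax6 was not called in any line. It was at -2.77 and -3.0 in Ts6 cells, -2.31 and -3.36 in Ts8 cells, -3.34 and -4.29 in Ts11 cells, -3.61 and -3.79 in Ts15 cells, and -2.6 and -2.77 in WT cells. Ts11 and Ts15 lay below WT without overlap, at -1.13 (95% interval -2.02 to -0.23, adjusted p = 0.12) and -1.01 (-1.9 to -0.12, 0.16), and with only the arrays compared in the fit the Ts15 difference was called (adjusted p = 0.047). Replicates of Ts8 and of Ts11 differed from each other by about as much as Ts11 and Ts15 differed from WT. Ts6, which was low for the other progenitor and neurogenic genes above, differed from WT by -0.2 (-1.09 to 0.7).

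Sox1 is the only gene of the 8 on a chromosome that was trisomic in any line, chromosome 8, and its probes did not give the same picture. The brighter probe was at -1.18 and -1.31 in Ts6 cells, -1.03 and -1.49 in Ts8 cells, -1.28 and -1.27 in Ts11 cells, -1.68 and -1.98 in Ts15 cells, and -1.28 and -1.87 in WT cells. All 4 lines overlapped WT, and no difference was called (0.33, 0.31, 0.3 and -0.26). In Ts8 the difference of 0.31 had a 95% interval of -0.22 to 0.85, which holds both 0 and the 0.58 that 3 copies against 2 would give in proportion. The probe 1993 bases downstream was at -3.5 and -2.37 in Ts6 cells, -0.89 and -1.7 in Ts8 cells, -3.3 and -3.29 in Ts11 cells, -2.37 and -2.55 in Ts15 cells, and -2.09 and -1.88 in WT cells. There Ts8 was above WT and the other lines below it, without overlap in any, but against WT none was called (-0.95, adjusted p = 0.17, in Ts6; 0.69, 0.3, in Ts8; -1.31, 0.08, in Ts11; -0.47, 0.49, in Ts15). At this probe Ts6 was lower than Ts8 (-1.64, adjusted p over all probes = 0.03) and Ts8 was higher than Ts11 (2.0, 0.021). A test of the difference between probes, added after their values were seen, gave 1.61 ± 0.42 (SE) for the brighter minus the downstream probe in Ts11 and 1.28 ± 0.42 in Ts6 (adjusted p = 0.14 and 0.17 over 8649 genes with several probes, of which 1.29% and 2.72% were called). With the mean of both probes, Sox1 differed from WT by -0.31 in Ts6 and -0.51 in Ts11, the opposite sign of the brighter probe.

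Over the 6 pairs of lines, 13 of 48 differences were called, and they fell on Nes, Neurod1, Sox11 and Neurog3 only. The 8 genes gave 3 calls for Ts6 against Ts8, 2 for Ts6 against Ts11 and 4 for Ts6 against Ts15, all lower in Ts6, where 7.43%, 3.49% and 7.86% of all genes were called lower. Ts8 was higher in 1 gene than Ts11 and in 2 than Ts15 (4.52% and 11.6% of all genes called higher), and Ts11 was lower than Ts15 in 1 (5.77%). Without Ts15 replicate 1 or 2, 7 or 6 of the 48 were called.

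The upstream sequences of Nes, Neurod1 and Neurog3 are shown because the first 2 had the most alike levels and the third differed most from WT among the genes measured on every array. They are the 250 bases before the annotated start in RefSeq on GRCm38.p6, and capitals mark the E-box CANNTG, which reads the same on both strands.
Nes (chr3:87970843-87971092, plus strand): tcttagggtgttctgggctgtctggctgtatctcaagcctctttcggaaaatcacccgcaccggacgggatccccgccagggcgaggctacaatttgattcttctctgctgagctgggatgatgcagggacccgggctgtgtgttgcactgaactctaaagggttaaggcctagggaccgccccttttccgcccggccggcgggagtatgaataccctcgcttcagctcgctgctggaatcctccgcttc
Neurod1 (chr2:79456637-79456886, minus strand): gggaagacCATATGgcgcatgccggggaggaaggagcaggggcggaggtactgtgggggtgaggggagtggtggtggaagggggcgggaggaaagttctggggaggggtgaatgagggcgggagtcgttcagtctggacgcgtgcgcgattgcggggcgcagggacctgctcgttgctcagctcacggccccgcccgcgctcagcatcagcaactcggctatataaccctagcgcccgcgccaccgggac
Neurog3 (chr10:62132840-62133089, plus strand): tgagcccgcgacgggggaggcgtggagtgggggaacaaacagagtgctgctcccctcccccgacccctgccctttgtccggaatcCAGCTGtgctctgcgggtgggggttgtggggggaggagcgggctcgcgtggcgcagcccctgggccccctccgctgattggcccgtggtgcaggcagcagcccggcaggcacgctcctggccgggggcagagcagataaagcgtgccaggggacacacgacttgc
The Neurod1 window held 1 E-box (CATATG), the Neurog3 window 1 (CAGCTG) and the Nes window 0, and 66.2% of 32851 promoter windows of this kind hold at least 1. Hes3 was not in the table.

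Further genes of the neural programme were read from lists, all against WT. Of 16 tested genes of progenitor structure and identity, 2 rose and 7 fell in Ts6 (56.2% called, median -0.6, where 9.04% of all genes were called), 1 fell in Ts8, 2 fell in Ts11 and 0 were called in Ts15 by limma (1 lower at an unadjusted p under 0.05; of all genes, 3.49% were called in Ts8, 8.13% in Ts11 and 7.43% in Ts15). Beside Nes, those that fell in Ts6 included Nr2f1, a nuclear receptor of the forebrain (-1.33, adjusted p = 0.028), Cdh2, N-cadherin (-0.99, 0.023) and Prom1, the stem cell antigen prominin (-0.97, 0.025). In Ts11 the glial glutamate transporter Slc1a3 (-0.83, 0.021) and the matrix proteoglycan Ncan (-0.7, 0.026) fell, and in Ts8 the receptor phosphatase Ptprz1 (-0.95, 0.033). In Ts6, against the direction of Nes, Msi1, an RNA-binding protein of neural stem cells, rose by 0.99 (0.032), and Nr2e1, a nuclear receptor of neural stem cells that was not well above background in WT, was at least 4.46-fold higher in Ts6 (0.00038). Nr2e1 was tested only through Ts6, the group where it was high, so its place among the genes that rose was favoured by the filter. It has a single probe in column 156 of the 164 columns of the array. Of the 119 genes that were dark in WT and called higher in Ts6, 87.4% had their probe on the right side of the array, against 71.0% of all 262 genes dark in WT and 49.9% of all genes, and the part of position in the Nr2e1 value was not tested. The members lower in Ts6 were recorded at columns 10 (Neurod1), 25 (Neurog3), 34 (Sox11), 51 (Hes3), 79 (Nes) and 140 (Lhx2). The part of position in their values was not tested either.

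Of 22 genes of neuronal differentiation, 4.55% were called in Ts8, 0.0% in Ts11 and 9.09% in Ts15, beside 3.49%, 8.13% and 7.43% of all genes. In Ts6 the share was 27.3% (9.04% of all genes) and the median -0.43, and 0 rose while 6 genes fell. They were the vesicle protein Syt1 (-1.6, adjusted p = 0.011), the axon growth genes Crmp1 (-1.52, 0.0055), Dpysl3 (-1.04, 0.0079) and Gap43 (-0.91, 0.0032), and the neurofilaments Nefm (-1.36, 0.001) and Nefl (-1.23, 0.0018). Gap43 instead rose by 0.56 in Ts8 (0.044), where both arrays (1.04 and 0.98) were above WT (0.38 and 0.53) and Ts6 was below (-0.54 and -0.39). In Ts11 limma called 0 of the 22 (1 higher and 3 lower at an unadjusted p under 0.05), and in Ts15 the microtubule protein Dcx was at least 2.72-fold lower (0.0028).

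Of 30 neural plate factors, 1 rose and 5 fell in Ts6, 0 were called in Ts8 (5 higher and 4 lower at an unadjusted p under 0.05), 1 rose and 2 fell in Ts11, and 1 rose in Ts15. Sox3, a close relative of Sox1, fell by 1.01 in Ts6 (adjusted p = 0.012), with Zfp521 (-0.89, 0.025), En2 (-0.6, 0.039), Lhx2 and En1, and Zic5 rose by 0.46 (0.044). In Ts11 Gbx2 fell by 1.27 (0.038) and Irx3 rose by 1.11 (0.018), and En1 was not well above background in Ts6 or Ts11, at least 1.05-fold (0.024) and 1.31-fold (0.022) lower, and was tested only through WT. In Ts15 the dorsal factor Msx1 rose by 0.84 (0.046). The proneural and neurogenic list added Insm1 in Ts6, Ts11 and Ts15, Sox12 in Ts11 (-0.6, 0.036) and Myt1l, at least 1.89-fold lower in Ts15 (0.032), to the members named above, and none of its 16 tested genes rose in any line by limma (at an unadjusted p under 0.05, 2 were higher in Ts8, 1 in Ts11 and 0 in Ts6 and Ts15).

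Notch signalling, in which Dll1 and Dll3 are ligands and Hes and Hey factors are targets, had 4 of 27 genes lower in Ts6 and 5 lower and 1 higher in Ts11, Hes3 among those lower in each. That was 14.8% and 22.2%, beside 9.04% and 8.13% of all genes. Without Hes3, tested only through WT, 3 of 26 were lower in Ts6 and 4 in Ts11. In Ts8 and Ts15 3.7% and 7.41% of the 27 were called, near the 3.49% and 7.43% of all genes. Dll1 fell by 1.2 in Ts6 (adjusted p = 0.026) and fell by 1.34 in Ts11 (0.021), and Dll3 was at -0.52 (0.037) in Ts6 and -1.04 (0.0042) in Ts11. In Ts11 Hes6 fell by 0.83 (0.029) and the modifier Mfng fell by 0.58 (0.031), Hey2 rose by 0.92 (0.018), and in Ts6 Maml3 fell by 0.56 (0.044). In Ts8 the feedback inhibitor Nrarp rose by 1.14 (0.022), and in Ts15 Mfng rose by 0.76 (0.013). Hes1, Hes5 and Hey1 were not called in Ts6 (-0.1, 0.02 and -0.18) or in Ts11 (0.0, 0.27 and -0.21). Activity of the pathway was not tested.

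In a list of 21 genes named for inhibitors of neural fate, 1 fell in Ts6 (Id2, which blocks bHLH factors, -0.85, adjusted p = 0.048). In Ts15 1 rose (the Wnt inhibitor Dkk1, 2.03, 0.0091). That was 4.76% in each, below the 9.04% and 7.43% of all genes. Dkk1 is also among the inducers below, so its rise is not read for either role. In Ts8 and Ts11 limma called 0 (1 higher and 3 lower, and 1 higher and 2 lower, at an unadjusted p under 0.05). Of 13 secreted inducers and related enzymes, Aldh1a2, which makes retinoic acid, fell by 1.16 in Ts6 (0.0027) and rose by 0.82 in Ts8 (0.03). Sfrp2 fell by 0.71 in Ts6 (0.011), the nodal inhibitors Lefty2 and Lefty1 fell in Ts11 (-1.14 and -1.06, 0.03 each), and in Ts15 Fst rose by 0.78 (0.021), beside Dkk1, which stands in both of these lists, and Sfrp1 fell by 1.02 (0.0086).

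**Figure D4:**
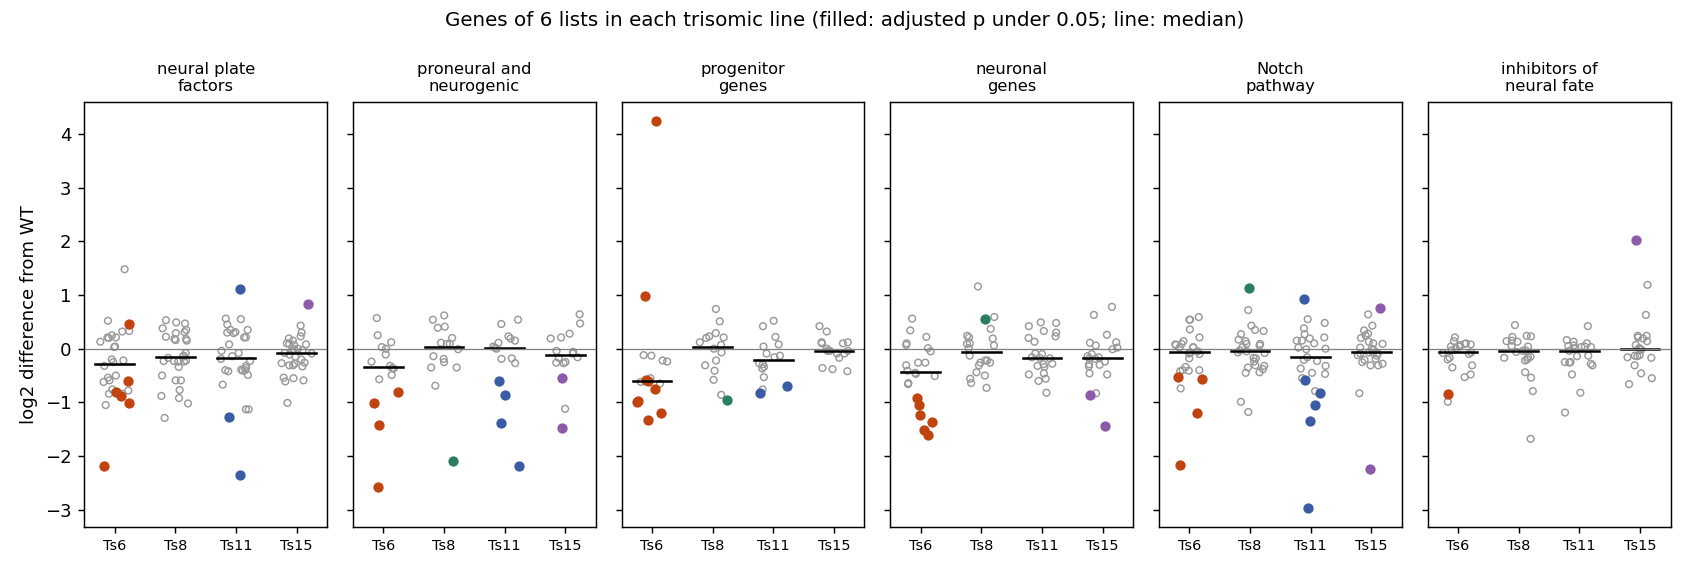
Log2 difference from WT (y axis) of every tested gene of 6 lists in Ts6, Ts8, Ts11 and Ts15, with filled points where the adjusted p was under 0.05 and the median as a line. The medians of progenitor and neuronal genes lie at -0.6 and -0.43 in Ts6 and near 0 in Ts8, and the high point of the progenitor panel is Nr2e1, whose WT level is only a bound.

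The cells kept ES cell markers. All 20 pluripotency genes were well above background in every group; limma called 0 of the 20 in Ts6, Ts11 and Ts15 (1 higher and 1 lower, 2 and 4, and 0 and 1 at an unadjusted p under 0.05), and in Ts8 Tfcp2l1 fell by 0.64 (adjusted p = 0.035). Of 24 markers of the feeder fibroblasts, 2 fell in Ts6 (Col5a2 and Pdgfra; 21 of 24 differences were below 0) and 2 rose in Ts15 (Acta2 and Sparc), with 0 called in Ts8 and Ts11 by limma (4 and 2 lower at an unadjusted p under 0.05). Their summed level, in multiples of the 75th percentile over 25 genes, was 83.4 to 94.0 in Ts6, 87.6 to 96.4 in Ts8, 94.6 to 107 in Ts11, 118 to 124 in Ts15 and 101 to 102 in WT. Lum was not well above background in any group. Of the 24 feeder markers, 8.33% were called in Ts6 and in Ts15, near the 9.04% and 7.43% of all genes. Of the 20 pluripotency genes, 5.0% were called in Ts8, beside 3.49% of all genes. The part of feeder RNA in the differences of the neural genes was not tested. Ts6, Ts8, Ts11 and WT were on slide 1 and Ts15 on slide 2, so slide and line cannot be told apart for Ts15, and 71.4% to 80.2% of noncontrol spots were well above background.

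The genes whose levels followed each member most closely over the 10 arrays were sought among 24869 genes well above background on all of them. For Nes they were Emilin3 (Pearson r = 0.95), a probe without a gene name (0.947) and Fgf13 (0.945), for Neurod1 Serpine2 (0.979), 1110032F04Rik (0.979) and Ctnnd2 (0.972), and for Neurog3 Gfra2 (0.975), Dgkk (0.969) and Chpf2 (0.966). Lhx2 was followed by Rtel1 (0.947), Hoxa11 (0.937) and Ubxn2b (0.93), and Pax6 by Lrrc10 (0.973), Zfp882 (0.938) and Ccdc14 (0.931). The 3 nearest to Sox11 (0.984, 0.983 and 0.979) had no gene symbol, and Sox1 had Mat2a (0.938) between 2 features without one (0.957 and 0.934). All these values share the arrays and were chosen as the highest, so they describe likeness only.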

How the data were processed

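RNA from 10 cultures was amplified, labelled with Cy3 and hybridised to 1-colour Agilent mouse arrays, per the labels' protocols. Per the file headers, the authors read the arrays with Agilent Feature Extraction 10.7.3.1, which detrended the signal (spatial and multiplicative), subtracted no background and put surrogates in place of dim values; the deposited intensity values carry no normalization between arrays. The authors' deposited series table holds log2 values with columns of equal SD (3.81) and medians of -3.4085 to -3.3118, which increased with the scanner's log2 values (r = 0.9984 to 0.9999). Their scaling and centring are not given in the sources used here, so the table served as an alternative.

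Here log2 of the processed intensity minus each array's 75th percentile was used, averaged over spots of a probe. A probe was kept where both arrays of some group were well above background and no array was flagged (176 probes were), and 43056 were kept. Each gene was read from its brightest kept probe, by the mean of the 10 arrays. Names were updated through RefSeq accessions (26756 of 28390 matched, 2877 changed). No spot was saturated. Comparisons used limma 3.58.1 (R 4.3.3) with 1 mean per group and a moderated variance over 5 residual degrees of freedom, and p-values were adjusted by Benjamini-Hochberg over all genes; the number of arrays limits the precision. The fit was tested on simulated data. The alternatives were normexp, quantile and median scaling, the series table, other filters, other probe rules, only the arrays compared, slide 1 alone, a replicate block, passage as a covariate and leaving out each array.

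The 8 genes and the lists were chosen with earlier results of these data known, so no list serves as independent evidence. The text names all 8, up to 6 called genes per list and line by size of difference, and the 3 genes most alike each member. Some called genes of the lists are not reported here.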

Additional observations from a re-analysis of the deposited data

Results flagged for a closer look

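The differences below between 2 lines were called by a limma contrast of the lines themselves, which equals the difference of their effects against the shared WT arrays. Nes was lower in Ts6 than in Ts8 (-1.49), Ts11 (-0.91) and Ts15 (-0.77), and higher in Ts8 than in Ts15 (0.71). Neurod1 was lower in Ts6 than in Ts8 (-1.56), Ts11 (-1.16) and Ts15 (-0.77), and higher in Ts8 than in Ts15 (0.79). Sox11 was lower in Ts6 than in Ts8 (-1.22) and Ts15 (-0.72), higher in Ts8 than in Ts11 (1.29), and lower in Ts11 than in Ts15 (-0.78). Neurog3 was lower in Ts6 than in Ts15 (-1.46).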

How the results depend on the processing

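With 2 arrays per group the calls were few and sensitive to single arrays and to passage. The counts below include Hes3. Passage as a covariate left 2 members called in Ts6, 0 in Ts8, 0 in Ts11, 0 in Ts15, 0 in the mean of the lines and 13 list calls (78 otherwise). Fitting only the arrays compared gave 0 in Ts8, 1 in Ts11 and 39 list calls. Without a filter on dim probes there were 0 in Ts8, 0 in Ts15, 1 in the mean of the lines and 50 list calls. With genes well above background on all 10 arrays, which drops Hes3, there were 0 in Ts15 and 1 in the mean of the lines. Leaving out each array in turn gave 2 to 5 members in Ts6, 0 to 1 in Ts8, 1 to 3 in Ts11, 0 to 2 in Ts15, 0 to 2 in the mean of the lines, 6 to 15 over the pairs of lines and 35 to 82 list calls. The cause of these changes was not tested.

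The signs of some differences that were not called turned. With passage as a covariate, Sox11 was at 0.05 in Ts15, Lhx2 at 0.11 in Ts8 and 0.04 in Ts11, and Sox1 at -0.0032 in Ts8, -0.11 in Ts11 and -0.14 in the mean of the lines. With the mean of a gene's probes, Sox1 was at -0.31 in Ts6, -0.51 in Ts11 and -0.17 in the mean of the lines. Without single arrays, Neurod1 ranged from -0.03 to 0.32 in Ts11 and from -0.33 to 0.03 in the mean of the lines, Pax6 from -0.67 to 0.38 in Ts8, and Sox1 from -0.00069 to 0.59 in Ts11, -0.55 to 0.04 in Ts15 and -0.13 to 0.47 in the mean of the lines. Each member's difference was counted once per setting. Differences from WT were counted whether called or not, and differences between lines only where called in the main fit. Of these counts, 495 kept direction and side of the threshold under the settings that kept all 10 arrays. There 21 lost the call and 9 turned sign. With only the arrays compared or slide 1 alone, 63 kept direction and side of the threshold, 11 lost the call and 1 gained it. Leaving out an array turned the sign of 6 and lost the call far more often than that. Under normexp Hes3 was at -0.81 in Ts6 (-2.17 otherwise), -1.05 in Ts11 (-2.96) and -0.81 in Ts15 (-2.25).

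Replicate numbers did not pair the arrays: deviations of same-numbered arrays correlated at -0.1 to 0.39 (median 0.05, 10 pairs). The replicate block gave 5 members in Ts6, 1 in Ts8, 3 in Ts11, 1 in Ts15, 2 in the mean of the lines, 14 over the pairs and 75 list calls. Over all settings, calls numbered up to 3678 in Ts6, as few as 0 in Ts8, 48 to 2985 in Ts11 and 449 to 3059 in Ts15. In the mean of the lines they numbered 2 to 1355. The highest counts in Ts6, Ts11 and Ts15 are of probes, from the setting that tested each probe on its own, and the other counts are of genes. The share of calls that were lower was 41.1% in Ts8 (60.6% after median scaling and 51.8% after quantile normalization), 50.4% in Ts11 (35.1% in the series table) and 65.4% in Ts15 (49.5% with normexp, 50.7% with median scaling, 54.3% with quantile and 48.7% in the series table). Between lines, median scaling gave 39.4% for Ts6 against Ts8 (54.2% otherwise), 54.6% for Ts6 against Ts15 (43.2%), 62.2% for Ts8 against Ts15 (32.4%) and 57.4% for Ts11 against Ts15 (38.4%), and in the series table it was 66.5% for Ts6 against Ts11 (48.0%) and 57.5% for Ts8 against Ts11 (42.2%). No scaling moved the median of all genes by more than 0.09. Slide 1 alone holds no Ts15 array, and the mean of the lines was not fitted to only the arrays compared.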
